A study of Mus musculus with 12 samples.

Results

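The genes described here belong to the transforming growth factor beta (TGF-beta), activin and myostatin branch of growth factor signaling in C2C12 cells, a mouse myoblast line. They were chosen by name: the ligand genes Tgfb1, Tgfb2, Tgfb3, Mstn and Inhba, the follistatin gene Fst, the latency protein genes Ltbp1 and Ltbp2, and the receptor genes Tgfbr2 and Tgfbr3. Of these 10 genes, 8 had a row in at least 1 of the 3 expression tables, which together held 10289 genes. Mstn and Inhba had no row in the tables used here, and nothing is said about their levels. RNA was sequenced from C2C12 lines made with lentivirus from a vector with a CMV promoter and selected with puromycin, which carried GFP (the negative control), mouse METTL3 or mouse METTL14, the latter 2 being the core proteins of the m6A methyltransferase. There were 8 such libraries in 4 groups of 2: GFP-overexpressing cells in growth medium (GM, day 0), GFP-overexpressing cells after 4 days in differentiation medium (D4), and cells overexpressing METTL3 or METTL14, also in GM. Because no value per library was used, the overexpression of each introduced gene could not be checked. The time point field of the METTL14 libraries reads D4 whereas their titles read D0, and the titles were followed. Another 4 libraries, input and m6A immunoprecipitated RNA of GFP-overexpressing cells at both stages, were not analysed here.

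The value that could be used was a mean. For each gene the tables give the authors' mean normalised read count, taken over the libraries of their fit after scaling for library size, and it did not differ between tables for a gene with rows in several (largest relative difference 4.77e-10 over 1746 genes). The tables do not name the libraries that enter this mean. Its identity across the tables for D4, METTL3 and METTL14 points to a common set, so undifferentiated cells, myotubes and both overexpressing lines are taken, by inference, to be merged in it. It carries no error and no number of replicates, and the level of a gene in a single group or library cannot be read from it. The remaining columns are the authors' own comparisons of groups and were not used, so no direction or size of change is given here for any gene. The depth of the libraries could not be read from these tables, and no order of levels below could be set against the spread between libraries.

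TGF-beta ligands are secreted as dimers held inactive by their own propeptide, and latent TGF-beta binding proteins anchor this latent complex in the extracellular matrix. Once released, TGF-beta binds a type II receptor that recruits and phosphorylates a type I receptor, which in turn phosphorylates SMAD2 and SMAD3. Myostatin and activins use the same SMADs through activin type II receptors and are neutralised by follistatin. In muscle, TGF-beta and myostatin are known for restraining myoblast differentiation and growth, and follistatin for promoting muscle mass.

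All 3 TGF-beta ligand genes had a row, and their levels lay within about 3.4-fold of each other on each scale used. The mean normalised count was 2205 for Tgfb1, 1289 for Tgfb2 and 2271 for Tgfb3. Longer transcripts yield more reads, so levels of different genes were compared per kilobase of annotated exon. Per kilobase the mean normalised count was 671 for Tgfb3, 437 for Tgfb1 and 223 for Tgfb2, that is, Tgfb3 was 3.02 times Tgfb2 and 1.53 times Tgfb1. Of the summed level of the 3 ligand genes per kilobase, Tgfb3 made up 50.4%, Tgfb1 32.9% and Tgfb2 16.7%. The order of Tgfb1 and Tgfb3 turned with the length used: with the longest annotated transcript in place of all exons, Tgfb1 was at 857 per kilobase and Tgfb3 at 671, and the shares of the summed level were 37.7% for Tgfb3, 48.1% for Tgfb1 and 14.2% for Tgfb2. Tgfb1 has 5 annotated transcripts and 5042 exonic bases, of which its longest transcript holds 2573, whereas Tgfb3 has a single annotated transcript of 3383 bases. Tgfb2 was the lowest of the 3 on each of these scales. These values come from a mean taken to merge both stages, with most groups in GM. The shares and order within GM or D4 alone cannot be read from it.

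The latency protein gene Ltbp1 had the highest mean normalised count of the members, 6135. LTBP1 binds the latent TGF-beta complex covalently. It is encoded by the longest exonic sequence of the members (10691 bases in 37 merged exons), and per kilobase it was at 574, second to Tgfb3 and 1.31 times Tgfb1. With the longest transcript as the length it was at 920, above Tgfb3 at 671 and 1.07 times Tgfb1. Ltbp2, whose product belongs to the same matrix protein family but does not bind latent TGF-beta, had a mean normalised count of 2704 and a level of 330.3 per kilobase, so that Ltbp1 was 1.74 times Ltbp2 (2.30 times with the longest transcript).

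The 2 receptor genes stood far apart. Tgfbr2, the type II receptor that all TGF-beta ligands require, had a mean normalised count of 4061, or 496 per kilobase. Tgfbr3 encodes betaglycan, a coreceptor without kinase activity that presents TGF-beta, TGF-beta2 in particular, to the type II receptor. Its mean normalised count was 338 and its level 51.7 per kilobase, the lowest of the members with a row, and Tgfbr2 was 9.60 times Tgfbr3 per kilobase. Tgfbr2 has 8187 exonic bases and Tgfbr3 has 6545, and Tgfbr2 was also the higher of the 2 without division by length.

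Fst, the gene of follistatin, the secreted antagonist of myostatin and activins, was second lowest. The ratios to TGF-beta ligand genes given here order levels only, and no balance of antagonist and ligand is drawn from them. It had a mean normalised count of 396 and a level of 86.2 per kilobase, which was below the 3 TGF-beta ligand genes, with Tgfb2 at 2.58 times and Tgfb3 at 7.79 times its level. With the longest transcript as the length Fst was at 135, and Tgfb2 and Tgfb3 were then at 1.86 and 4.96 times its level.

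**Figure D1:**
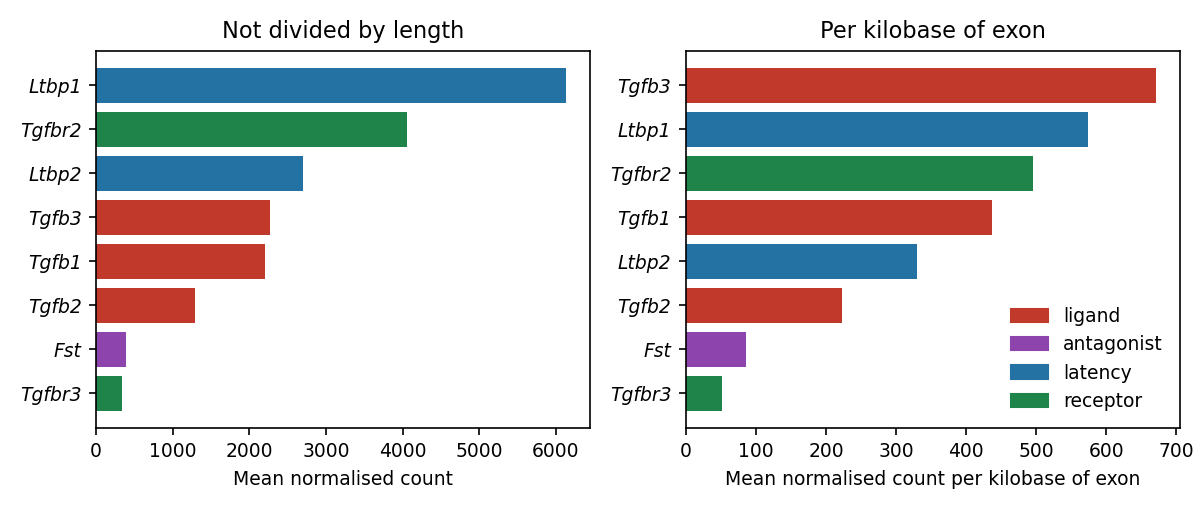
Mean normalised count of the 8 members with a row, as deposited (left) and per kilobase of annotated exon (right). Bars are the authors' means over libraries and have no error; Ltbp1 leads on the left with 6135 and Tgfb3, with this length, on the right with 671, while Fst and Tgfbr3 are lowest on both.

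Among the 10282 listed genes that could be matched to exon lengths, the median level was 99.5 per kilobase, with an interquartile range of 27.5 to 253. The percentile of a gene here is the percentage of these genes that lay below it. Tgfb3 was at percentile 91.7, Ltbp1 at 90.0, Tgfbr2 at 87.9, Tgfb1 at 86.0 and Ltbp2 at 80.7. These 5 genes lay above the upper quartile. Tgfb2 followed at percentile 71.9. Fst (percentile 46.3) and Tgfbr3 (percentile 35.1) were the only members with a row that lay below the median. With the longest transcript as the length, Ltbp1 (percentile 91.7) and Tgfb1 (91.1) came before Tgfb3 (88.2). Fst was then at percentile 49.99, all but at the median. Genes without a row do not enter these percentiles, and the tables hold only genes that passed the authors' limit in some comparison, so they do not place the members in the whole transcriptome.

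**Figure D2:**
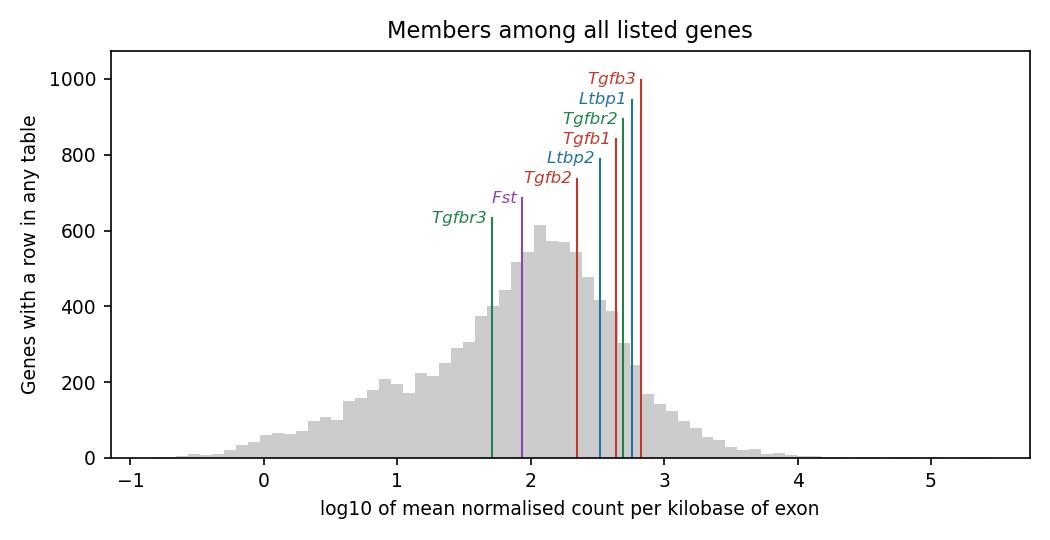
Histogram of log10 mean normalised count per kilobase for the 10282 listed genes with an exon length, with a vertical line at each of the 8 members (red ligands, purple antagonist, blue latency proteins, green receptors). Tgfb3, Ltbp1, Tgfbr2, Tgfb1 and Ltbp2 lie above the upper quartile of the genes, and Fst and Tgfbr3 below the median of 99.5.

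Each table holds the genes that the authors kept at an FDR of 0.05 or less in their comparison, and a row by itself gives neither a direction nor a size. Tgfb3, Fst, Tgfbr2 and Tgfbr3 had a row in all 3 tables, as did 6.26% of the 10289 genes. Tgfb1, Tgfb2 and Ltbp1 had a row for D4 against GM alone, and Ltbp2 had one for METTL3 and for METTL14 but none for D4. By table, 7 of the 8 members were in the D4 table (95.5% of the 10289 genes), 5 in the METTL3 table (17.0%) and 5 in the METTL14 table (10.7%). The 10289 are genes with a row for any comparison, so these are not shares of all genes tested. The METTL3 and METTL14 tables share their GFP libraries and the same 5 members, Ltbp2, Tgfb3, Fst, Tgfbr2 and Tgfbr3. The members were named with earlier results of these data known, and nothing is drawn from these counts.

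The members were set beside the other genes of the pathway, 36 genes in 6 roles, of which 22 had a row. Among the other ligand genes, the inhibin and activin subunit gene Inhbb was at 651 per kilobase, close to Tgfb3, and Gdf11, the closest relative of myostatin, was at 238, close to Tgfb2. Inha, the inhibin alpha subunit gene, was at 57.6. The follistatin family gene Fstl1 was at 2548 and the matrix proteoglycan gene Dcn, whose product binds TGF-beta, at 476. Both lay above Fst. The remaining 4 genes listed under the antagonist role (Fstl3, Wfikkn1, Wfikkn2 and Bambi) had no row. The role is that of the list, and whether each product acts as an antagonist in these cells was not tested.

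Among the genes for latency and activation, Ltbp3 was at 954 per kilobase and Ltbp4 at 259. The order of the 4 binding protein genes was therefore Ltbp3, Ltbp1, Ltbp2 and Ltbp4. Thbs1, which encodes thrombospondin-1, a matrix protein that can activate latent TGF-beta, had the highest level of the role at 8871. Furin, the protease that cleaves the ligand precursors, was at 297, or at 476 with the longest transcript as the length. The TGF-beta docking receptor gene Lrrc32 was at 72.7 and the integrin gene Itgb8 at 41.0, and the integrin gene Itgav had no row. Of the other receptor genes, Acvr2a, an activin type II receptor, was at 88.6 and Acvr1b, an activin type I receptor, at 37.5. Tgfbr2 was above both, and Tgfbr3 lay between them. Tgfbr1, Acvr1c, Acvr2b and Eng had no row, so the type I partner of Tgfbr2 has no level here.

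Inside the cell, Smad3 was at 251 per kilobase, Smad2 at 102, and Smad4, the partner of both, at 266. The inhibitory Smad7 was at 98.7. The corepressor genes Ski and Tgif1 were at 450.0 and 287. With the longest transcript as the length their order turned, with Ski at 453 and Tgif1 at 514. Skil, Smurf1, Smurf2 and Pmepa1 had no row. Of genes commonly used as targets of TGF-beta, Acta2 (smooth muscle actin) was at 13440, Col1a1 (type I collagen) at 5242 and Ccn2 (connective tissue growth factor) at 1071. The listed target gene Tgfbi had no row. Fstl1, Ltbp3, Thbs1, Acta2, Col1a1 and Ccn2 were above each of the members.

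**Figure D3:**
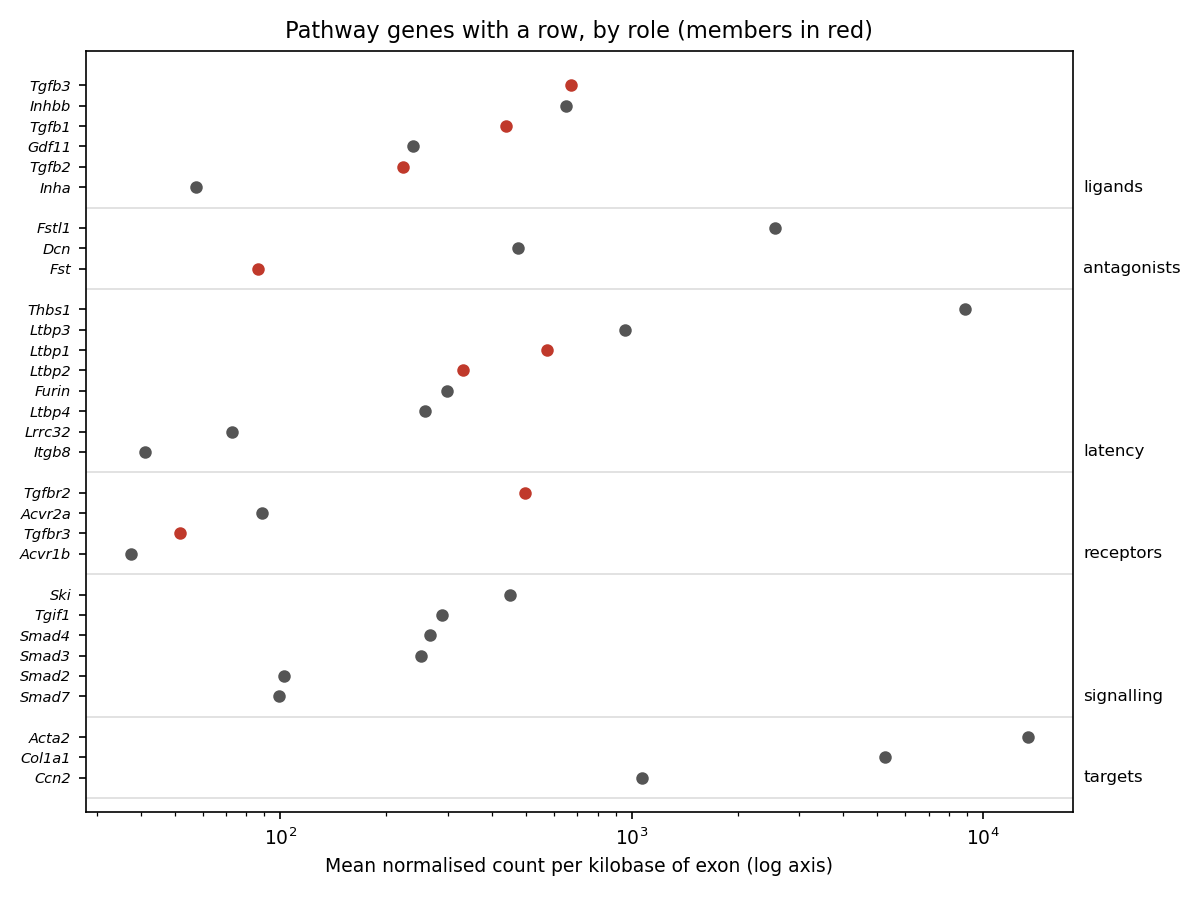
Mean normalised count per kilobase of exon, on a log axis, for the 30 pathway genes with a row, grouped by role, with the members in red and the other genes in grey. Each point is the authors' mean over libraries without error. Among genes with a row, Tgfb3 leads the ligands with the merged exon length (Tgfb1 with the longest transcript) and Tgfbr2 leads the receptors. Fst is lowest of the genes with a row under the antagonist role.

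The exonic sequence of the members was placed on GRCm38. Tgfb1 lies on chromosome 7 (25687002 to 25705077), Tgfb2 on chromosome 1 (186622792 to 186705989), Fst on chromosome 13 (114452290 to 114458951) and Ltbp1 on chromosome 17 (75005568 to 75392512). Tgfbr2 lies on chromosome 9 (116084293 to 116175360) and Tgfbr3 on chromosome 5 (107106570 to 107289629). Tgfb3 (86056745 to 86079041) and Ltbp2 (84783212 to 84876532) both lie on the minus strand of chromosome 12, 1.18 Mb apart. The coding share of the exons ranged from 21.7% for Tgfbr2 to 67.0% for Ltbp2 among the members with a row, so that most exonic bases of Tgfb1, Tgfb2, Tgfb3, Fst, Ltbp1, Tgfbr2 and Tgfbr3 are outside the coding sequence. Parts of some exons are shared with other annotated genes. This was 12.4% of the exonic bases of Tgfb3 (with Gm37804 and Gm48008) and 9.34% of those of Ltbp2 (with D030025P21Rik), and at most 4.54% for each of the other members. Whether reads were counted by strand is not given in the sources used here, and how far the shared bases moved the counts was not tested.

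Marker genes of muscle and of other cell types were looked up as well. A gene has a row where it passed the authors' limit in a comparison, so that a steadily expressed marker of any cell type can lack one, and having or lacking a row does not check the identity of the cells. All 5 myoblast markers had a row, from Vcam1 at 115 to the intermediate filament gene Des at 6435 per kilobase, with Myod1 at 992. All 6 myotube markers had one too, from Ryr1 at 395 to Acta1 at 34861, with Myog at 1421 and Myh3 at 6665. None of the 3 blood and 3 endothelial markers had a row. Of the fat, cartilage and glial markers, Cebpa was at 61.3, Sox9 at 263 and Col2a1 at 1.32 per kilobase, and the other 5 had no row.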

How the data were processed

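RNA-seq of C2C12 lines was used as 3 tables. Alignment by the authors was to GRCm38 with hisat2. The authors took gene counts from featureCounts and Ensembl models, tested groups with DESeq2 and kept genes at an FDR of 0.05 or less; program versions are not given in the sources used here. The deposited mean normalised count is a signal: read counts divided by size factors and averaged across libraries, all before deposit. The other columns hold the authors' log2 fold changes, standard errors, test statistics and p-values, and were not used. An unheaded value beside 1 gene in each of 2 tables was also left out.

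Levels were divided by the merged exon length in GENCODE M21 (GRCm38, another release than the Ensembl one the paper names), in which 10282 of 10289 identifiers were found. Percentiles are over those genes. No test was made, because no value per library was at hand. Length and overlap steps were tested on simulated data. Named genes are the members and the pathway list in 6 roles; 2 genes of the lists are not reported here. Members and lists were chosen with earlier results of these data known. Alternatives were another length, no division, and other reference genes. Python 3.11.15, pandas 2.3.3, NumPy 2.4.6 and matplotlib 3.10.9 were used.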

Additional observations from a re-analysis of the deposited data

How the results depend on the processing

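With the longest annotated transcript as the length, the mean normalised count per kilobase was 857 for Tgfb1, 252 for Tgfb2, 671 for Tgfb3, 135 for Fst, 920 for Ltbp1, 399 for Ltbp2, 502 for Tgfbr2 and 55.5 for Tgfbr3. Ltbp1 and Tgfb1 then came before Tgfb3 and Tgfbr2, and Ltbp2, Tgfb2, Fst and Tgfbr3 kept their places. Tgfb1 moved most, since its longest transcript holds 2573 of its 5042 exonic bases. Without division by length the values were 2205 for Tgfb1, 1289 for Tgfb2, 2271 for Tgfb3, 396 for Fst, 6135 for Ltbp1, 2704 for Ltbp2, 4061 for Tgfbr2 and 338 for Tgfbr3, and Ltbp1 and Tgfbr2 led. Fst and Tgfbr3 were lowest under all 3 settings. With protein-coding genes alone as the reference, percentiles of the 8 members fell by 0.67 to 4.96 points, and with the genes of the D4 table alone by at most 0.55 points. The length moved some percentiles further than these references did. Tgfb1 went from 86.0 to 91.1 with the longest transcript as the length. Without division Ltbp2 went from 80.7 to 91.1, Tgfbr3 from 35.1 to 42.7 and Tgfb2 from 71.9 to 77.9. No replicate could be left out and no filter or normalisation could be changed, because the values are means over libraries. No paired analysis was possible because the columns carry no replicate. The planned comparison of the ligands' protein sequences was not run, since protein sequences were not at hand. The tables also limit what can be said by holding no depth and no gene outside the authors' limit.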
